A study of Homo sapiens with 39 samples.

Results

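The respiratory chain subunits are the nuclear-encoded proteins of complexes I to V of the mitochondrial inner membrane. Members were chosen by gene symbol alone: NDUFA, NDUFB, NDUFC, NDUFS and NDUFV for complex I, SDHA to SDHD for complex II, UQCR and CYC1 for complex III, COX4 to COX8 for complex IV, and ATP5 for complex V, without assembly factors named NDUFAF and without pseudogenes. This gave 83 genes of the 16591 named on the array. Of these, 36 belong to complex I, 3 to complex II, 8 to complex III, 19 to complex IV and 17 to complex V. COXFA4 and COXFA4L2, earlier named NDUFA4 and NDUFA4L2, were placed with complex IV. The test covered 78 members, which had a probe detected on at least 2 arrays, and took in 35, 3, 8, 15 and 17 of complexes I to V. NDUFA5, COX4I2, COX6B2, COX7A1 and COX8C did not pass detection on any array and were not tested.

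RNA came from IM-9, which is a lymphoblastoid B cell line carrying Epstein-Barr virus and is labelled sensitive, and from U266, a multiple myeloma line labelled tolerant. Each line was sampled untreated at 0 h, and after 1, 3, 9 and 24 h with buffer or with 10 nM ch128.1Av, an antibody-avidin fusion protein directed at transferrin receptor 1. The 18 groups held 2 arrays each, but the treated groups of IM-9 at 3 h and of U266 at 1 h and 9 h held 3, for 39 arrays in all (19 of IM-9, 20 of U266). Each condition of a line rests on that 1 cell line, and replicates are not stated to be separate cultures, so p-values measure the spread between arrays, which may be technical.

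Complex I takes electrons from NADH and complex II from succinate, both hand them to ubiquinone, complex III passes them to cytochrome c, complex IV gives them to oxygen, and complex V makes ATP from the proton gradient. Iron-sulfur clusters or hemes carry electrons in complexes I to IV, so these complexes need iron that the cell takes up mainly through the transferrin receptor. Iron-sulfur subunits include NDUFS1, NDUFS7 and NDUFS8 of complex I, SDHB of complex II and UQCRFS1, the Rieske protein of complex III. SDHB and UQCRFS1 were not analysed here, so the iron-sulfur subunits below are those of complex I.

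Many promoters of respiratory genes are known to hold sites for NRF1, for the ETS factor GABP and for YY1. RefSeq promoter windows on GRCh38.p14, of 300 bases each, were found for 70 members. The letters CCGGAAG (ETS), GCATGCG (NRF1) or AAGATGG (YY1), on either strand, were in the windows of 39 of these 70 genes, or 55.7%, against 21.5% of 27305 genes with a window. By motif, the shares were 28.6% against 12.2% for ETS, 18.6% against 4.74% for NRF1 and 24.3% against 7.11% for YY1. By complex, 53.1% of 32 genes of complex I, 5 of 6 genes of complex III, 37.5% of 16 genes of complex IV and 71.4% of 14 genes of complex V held at least 1 of the motifs. Overlapping matches were counted once for each gene, and CGCATGCG holds the NRF1 letters on both strands. A match describes letters and not a bound site. The last 150 bases before the annotated start are shown for the members on which the results turn, 5′ to 3′ on the strand of the gene, with motif matches in capitals. NDUFS8, NDUFS3 and NDUFA13 are the complex I members with the smallest p in treated IM-9 at 24 h, NDUFS7 is a second iron-sulfur subunit, and SDHD, UQCRC2 and UQCR10 are the members of complexes II and III with the largest differences between the lines.
NDUFS8, chr11:68030531-68030680, plus strand: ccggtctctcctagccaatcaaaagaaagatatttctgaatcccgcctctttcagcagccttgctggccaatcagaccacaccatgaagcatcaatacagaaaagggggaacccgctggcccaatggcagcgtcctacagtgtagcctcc
NDUFS3, chr11:47578924-47579073, plus strand: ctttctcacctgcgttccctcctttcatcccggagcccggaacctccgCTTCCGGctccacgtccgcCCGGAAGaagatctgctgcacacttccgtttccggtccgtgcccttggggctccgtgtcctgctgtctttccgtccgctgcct
NDUFA13, chr19:19516075-19516224, plus strand: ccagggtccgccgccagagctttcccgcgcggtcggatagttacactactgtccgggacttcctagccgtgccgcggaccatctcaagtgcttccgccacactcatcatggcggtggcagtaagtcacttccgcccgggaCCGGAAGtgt
NDUFS7, chr19:1383757-1383906, plus strand: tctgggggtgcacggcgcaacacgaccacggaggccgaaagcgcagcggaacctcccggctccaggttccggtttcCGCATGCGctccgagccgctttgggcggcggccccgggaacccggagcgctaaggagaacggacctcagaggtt
SDHD, chr11:112086723-112086872, plus strand: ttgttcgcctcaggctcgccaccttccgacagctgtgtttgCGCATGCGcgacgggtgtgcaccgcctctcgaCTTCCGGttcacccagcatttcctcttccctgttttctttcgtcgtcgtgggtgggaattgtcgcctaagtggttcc
UQCRC2, chr16:21953211-21953360, plus strand: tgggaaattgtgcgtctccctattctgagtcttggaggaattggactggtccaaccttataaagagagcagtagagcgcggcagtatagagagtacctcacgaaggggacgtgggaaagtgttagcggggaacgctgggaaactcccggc
UQCR10, chr22:29767219-29767368, plus strand: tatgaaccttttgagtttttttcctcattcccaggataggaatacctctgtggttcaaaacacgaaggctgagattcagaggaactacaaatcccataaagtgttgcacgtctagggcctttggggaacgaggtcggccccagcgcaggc
NDUFS3 holds the ETS letters in both orientations and SDHD holds the NRF1 and the ETS letters. NDUFS7 holds the NRF1 letters in the stretch shown and the YY1 letters after its start. UQCRC2 holds the YY1 letters only after its start, outside the stretch shown, and NDUFS8 and UQCR10 hold none of these letters in their whole windows.

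Signals are given as normalized log2 intensities, and a gene is said to have passed the test at a Benjamini-Hochberg adjusted p under 0.05 over the 11538 genes tested, by limma. The deposited signals before normalization had medians between 137.9 and 223.3 over the arrays, and between 8967 and 10067 probes passed detection on an array. All 6 tested B lymphoblastoid markers were detected on every IM-9 array and 5 of the 6 on no U266 array, while their summed linear signal ran from 27622 to 39691 in IM-9 and from 1696 to 2042 in U266. Of 7 myeloma markers, 6 were detected on every U266 array, and 4 on every and 2 on no IM-9 array, while their summed signal ran from 15756 to 20660 in IM-9 and from 87322 to 101261 in U266. The plasma cell regulator IRF4 was the exception among them, at means of 11.47 in IM-9 and 11.35 in U266. The 7 tested markers of other cell types summed to between 1557 and 1611 in IM-9 and between 1626 and 1721 in U266, and 3 of the 7 were detected on no array of IM-9 and 3 on no array of U266. In whole-culture RNA, fewer cells of a kind and less RNA per cell cannot be told apart.

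The widest differences among the subunits were between the lines. In untreated and buffer arrays, 10 per line, complexes II and III stood higher in IM-9. In the same arrays, 2 isoform genes of complex IV were detected on all 10 of U266 and on none of IM-9. Over all complexes 33 members were higher and 31 lower in IM-9 than in U266. This is 64 of 78 members in a comparison in which 82.9% of all genes passed the test, 40.8% of them higher and 42.1% lower, so the count of members is near the background. In 36 members, or 46.2%, the 10 IM-9 arrays and the 10 U266 arrays did not overlap, against 50.9% of all genes tested.

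In complex III, 7 of 8 members were higher in IM-9 and 1 was lower, with a median difference of 0.63. UQCRC2, a core protein of the matrix face, ran from 10.44 to 11.14 (median 10.81) in IM-9 and from 9.18 to 9.74 (median 9.49) in U266, a difference of 1.32 (SE 0.06, adjusted p = 2.7e-16). UQCR10, a small subunit, ran from 11.43 to 11.83 (median 11.75) in IM-9 and from 10.29 to 10.88 (median 10.60) in U266, a difference of 1.09 (SE 0.0629, adjusted p = 3.17e-14). For both genes every IM-9 array lay above every U266 array. CYC1, the heme-bearing cytochrome c1, differed by 0.84, UQCRH by 0.95, UQCRB by 0.42, UQCR11 by 0.32 and UQCRC1 by 0.11. The exception was UQCRQ, a small subunit, which was lower in IM-9 (difference -0.41, SE 0.0303, adjusted p = 5.79e-12). UQCRH varied widely between arrays of 1 group, from 10.34 to 11.31 in untreated IM-9, and its lines overlapped.

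Complex II pointed the same way in its 3 members, of which 2 passed the test. SDHD, which anchors the complex in the membrane, ran from 10.77 to 11.82 (median 11.13) in IM-9 and from 9.43 to 10.08 (median 9.69) in U266, a difference of 1.53 (SE 0.127, adjusted p = 4.74e-11). SDHA, the flavoprotein that oxidizes succinate, ran from 10.67 to 11.20 (median 10.99) in IM-9 and from 10.06 to 10.60 (median 10.30) in U266, a difference of 0.66 (SE 0.0579, adjusted p = 1.41e-10). Neither gene overlapped between the lines. SDHC, the other membrane anchor, differed by 0.16 (SE 0.0731, adjusted p = 0.051) and did not pass, and its lines overlapped.

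Complex I was split. Of its 35 members 11 were higher and 17 lower in IM-9, with a median of -0.14. NDUFA9, an accessory subunit where the arms of the complex meet, was the highest of them in IM-9 relative to U266, at 12.51 to 12.75 (median 12.69) against 11.01 to 11.24 (median 11.10), a difference of 1.54 (SE 0.0337, adjusted p = 4.7e-23). NDUFC1, a small subunit of the membrane arm, was the lowest, at 10.84 to 11.25 (median 10.96) in IM-9 against 12.03 to 12.27 (median 12.18) in U266, a difference of -1.17 (SE 0.0502, adjusted p = 7.53e-17). Both genes were separated without overlap, in opposite directions, within 1 complex. The NDUFB subunits, all of the membrane arm, held 7 lower and 3 higher genes of 11, while of 3 NDUFV subunits, which belong to the NADH-oxidizing end, NDUFV1 and NDUFV3 were higher and NDUFV2 did not pass.

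Of the iron-sulfur subunits, 2 of 3 were lower in IM-9. NDUFS7, which carries the cluster next to ubiquinone, ran from 13.08 to 13.41 (median 13.36) in IM-9 and from 13.85 to 14.28 (median 14.03) in U266, a difference of -0.72 (SE 0.0428, adjusted p = 5.99e-14). NDUFS8, which carries a pair of clusters on the way there, ran from 13.51 to 13.75 (median 13.56) in IM-9 and from 13.97 to 14.22 (median 14.03) in U266, a difference of -0.46 (SE 0.0296, adjusted p = 3.92e-13). In both genes the lines did not overlap. NDUFS1, the largest subunit of the peripheral arm, was dim, with a mean of 8.31 in IM-9 and 8.35 in U266, and its difference of -0.04 (SE 0.0427, adjusted p = 0.35) did not pass.

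In complex IV 4 of 15 members were higher and 8 lower in IM-9. COX7B2, a paralogue of COX7B best known from testis, was not detected on any of the 10 IM-9 arrays and was detected on all 10 U266 arrays, where it ran from 10.20 to 10.54. COX6A2, the isoform of heart and skeletal muscle, was likewise undetected in IM-9 and ran from 9.12 to 9.60 in U266. Because a signal below background gives only a bound, U266 exceeded IM-9 by at least 6.14-fold for COX7B2 and at least 3.26-fold for COX6A2, taking the lowest detected signal of each IM-9 array as its limit where that was higher (adjusted p = 2e-31 and 9.91e-20 in the fit). Both genes passed the detection filter only through U266, where they are high, so their p-values add no support to the count of complex IV. The widely expressed counterpart COX7B went the other way, with a difference of 0.93 (SE 0.0768, adjusted p = 3.99e-11), and the counterpart COX6A1 differed by 0.08. COXFA4L2, another of the 8 lower members, was detected on 0 of 10 IM-9 arrays and 3 of 10 U266 arrays. Its means of 7.73 in IM-9 and 7.82 in U266 lay near background, so its call adds no support to the count either. Its difference of -0.09 was also the median of complex IV.

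In complex V 9 of 17 members were higher and 5 lower in IM-9. ATP5MJ, a small membrane subunit, ran from 11.92 to 12.26 (median 12.12) in IM-9 and from 11.04 to 11.38 (median 11.21) in U266, a difference of 0.88 (SE 0.0355, adjusted p = 1.85e-17). ATP5IF1, the protein that blocks ATP hydrolysis by the synthase, was lower in IM-9, at 12.28 to 13.01 (median 12.91) against 13.12 to 13.84 (median 13.48), a difference of -0.64 (SE 0.0755, adjusted p = 2.8e-08). The probes of ATP5F1D disagreed: the one used gave a line difference of -0.05 and the dimmer one 1.41. Those of ATP5IF1 gave -0.64 and -1.35, in the same direction.

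NDUFA9, NDUFC1, NDUFS7, NDUFS8, SDHD, SDHA, UQCRC2, UQCR10, ATP5MJ and ATP5IF1 passed the test with the same sign when any 1 array was left out and under all 9 other ways of processing tried. When arrays were scaled to equal medians in place of quantiles, 41 members were higher and 19 lower. Complexes II and III then had 3 of 3 and 7 of 8 higher, with medians of 0.82 each. The medians of complexes I and IV changed sign, to 0.03 and 0.11, with 13 higher and 11 lower in complex I and 7 higher and 5 lower in complex IV, while complex V had 11 higher and 2 lower. Of the NDUFB genes 3 were then higher and 5 lower, with a median of -0.15 in place of -0.34. The 64 called members were also set against the treated arrays, whose means did not enter the comparison. Of these members 58 had the same sign of line difference at all 4 hours of ch128.1Av. They included all 12 of complex IV, 6 of 8 of complex III and both of complex II. The treated arrays are of the same lines and shared the normalization and the estimate of spread, so this is not independent support. The share over all called genes was not computed.

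**Figure D1:**
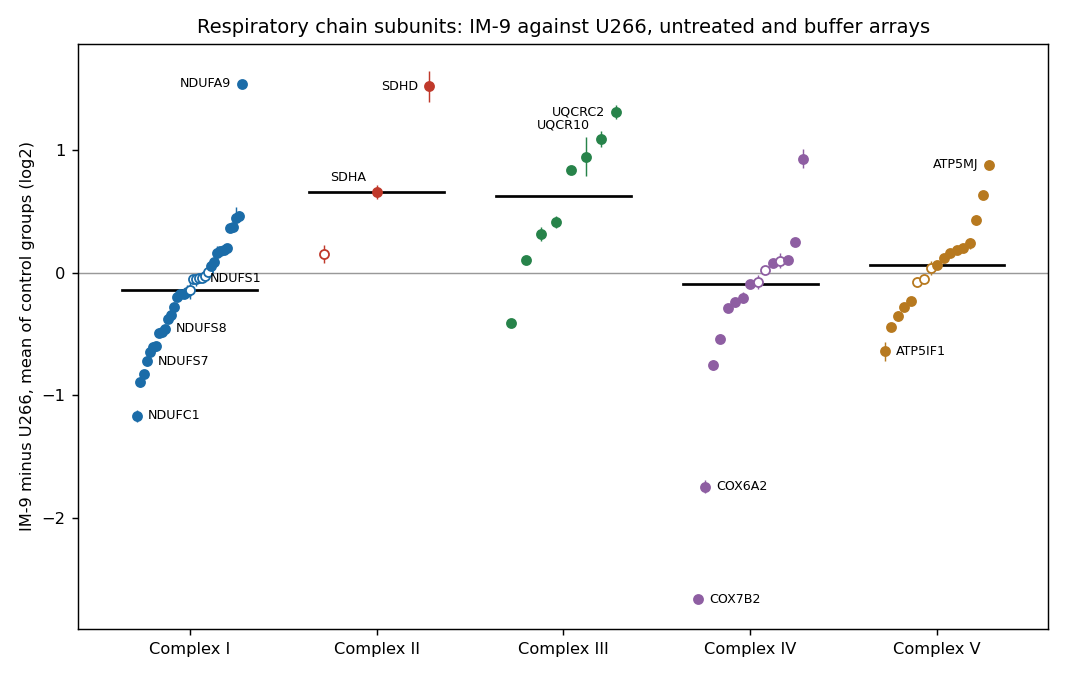
Difference between IM-9 and U266 (mean of 5 untreated or buffer groups each, log2) for each of 78 subunits by complex, with standard errors. Filled points passed the test at adjusted p under 0.05, and black bars are the complex medians. Complexes II and III lie mostly above 0, and COX7B2 and COX6A2, undetected in IM-9, lie lowest.

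The treatment comparisons asked whether ch128.1Av changed subunit transcripts in the sensitive line and in the tolerant one. In IM-9 at 24 h the complexes did not move as blocks. A few genes rose and others fell within the same complex: 4 members rose and 7 fell, 11 of 78, where 13.4% of all genes passed the test (6.15% higher, 7.23% lower). The share of members is thus close to the background. The median change of all 78 members was close to 0, at -9e-04, with 39 above and 39 below 0, and the median of all genes was -0.0017. Complex medians were -0.02 for complex I, 0.32 for complex II, 0.06 for complex III, -0.01 for complex IV and 0.01 for complex V. With equal medians, which shifted the median of all genes to -0.15, those of complexes II and III became -0.02 and -0.26, and 2 members were higher and 2 lower.

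Most called members were in complex I, where 2 rose and 5 fell of 35. NDUFS8 had the smallest p. Its signal was 13.75 and 13.72 in the buffer arrays and 13.49 and 13.13 in the treated arrays of IM-9, so that it fell by 0.42 (1.34-fold, SE 0.0663, adjusted p = 0.00014). NDUFS3, a core subunit of the peripheral arm next to it that carries no cluster, was at 13.54 and 13.46 with buffer and at 13.30 and 12.95 with ch128.1Av, and fell by 0.38 (1.30-fold, SE 0.0698, adjusted p = 0.000711). Treated and buffer arrays did not overlap for either gene, and in both the second treated array lay lowest. Without that array the fall of NDUFS8 was -0.24 (adjusted p = 0.00458) and that of NDUFS3 was -0.20 (adjusted p = 0.0565).

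NDUFA13, an accessory subunit also known as GRIM-19 from work on cell death, rose in IM-9. It was at 12.26 and 12.14 with buffer and at 12.65 and 12.81 with ch128.1Av, a rise of 0.53 (1.45-fold, SE 0.118, adjusted p = 0.00378). NDUFA10, an accessory subunit on the matrix side, was at 11.86 and 11.77 with buffer and 12.08 and 12.15 with treatment, a rise of 0.30 (adjusted p = 0.0187) whose sign turned to -0.03 with equal medians. Its treated arrays lay above both buffer arrays. The other calls in complex I were small falls of accessory subunits, of 0.19 for NDUFA7 (adjusted p = 0.0453), 0.16 for NDUFB8 (adjusted p = 0.0165) and 0.15 for NDUFA3 (adjusted p = 0.0364). In each of these genes the 24 h buffer mean was the highest of the IM-9 groups. Means at 0 h, with buffer at 24 h and with treatment at 24 h were 12.72, 12.95 and 12.76 for NDUFA7. They were 14.50, 14.74 and 14.57 for NDUFB8, and 13.62, 13.92 and 13.77 for NDUFA3. The treated means thus lay nearer to the 0 h means than the buffer means did.

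The other complexes gave 1 call each. In complex II SDHA was at 11.03 and 10.80 with buffer and at 11.26 and 11.40 with ch128.1Av, a rise of 0.41 (SE 0.129, adjusted p = 0.0373). SDHC stood 0.32 higher (adjusted p = 0.218) and SDHD 0.27 lower (difference -0.27, adjusted p = 0.623), so that the median of 0.32 came from 3 genes of which 1 passed. In complex III UQCRB, a small subunit known for ubiquinone binding, was at 11.72 and 11.77 with buffer and at 11.61 and 11.13 with treatment, and fell by 0.38 (adjusted p = 0.0158), most of it in the second treated array. COX7A2L of complex IV, known for joining complexes III and IV into supercomplexes, rose by 0.28 (adjusted p = 0.0275). ATP5F1E, the epsilon subunit of the synthase, was at 15.30 and 15.35 with buffer and at 15.07 and 15.08 with treatment. It fell by 0.25 (adjusted p = 0.015), a fall that became a rise of 0.21 with equal medians. Its 24 h buffer mean of 15.33 was the highest of the IM-9 groups, of which the lowest was 14.98.

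The IM-9 arrays at 24 h also differed in brightness, here the upper quartile of raw signal divided by its 5th percentile. It was 9.24 and 9.29 in the buffer arrays, 6.71 and 3.97 in the treated arrays, and between 4.22 and 6.89 in the other IM-9 arrays. With brightness as a covariate 3 members passed, 2 of them among the 11, while the count over all genes went from 1544 to 586. Markers of cell state moved in the same arrays. Of the 7 myeloma markers 4 rose, PRDM1 by 0.80, IRF4 by 0.59, TNFRSF17 by 0.34 and SDC1, which was detected on 1 of the 4 arrays, of the 6 B lymphoblastoid markers FCER2 and EBI3 rose by 0.28 and 0.22 and CR2 fell by 0.71, and of the 7 markers of other cells NKG7 fell by 0.16. Their part in the changes of the subunits was not tested. Of 9 of these members (all but NDUFB8 and NDUFA3), NDUFS8 passed whichever of the 4 arrays was left out, with the lone array left in its group taken to vary like the other groups, and under all 8 processing alternatives, NDUFS3 under all 8 alternatives, and the other 7 were lost without the second buffer array and without the second treated array. Without the second treated array 1 member passed, and without the second buffer array 3.

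**Figure D2:**
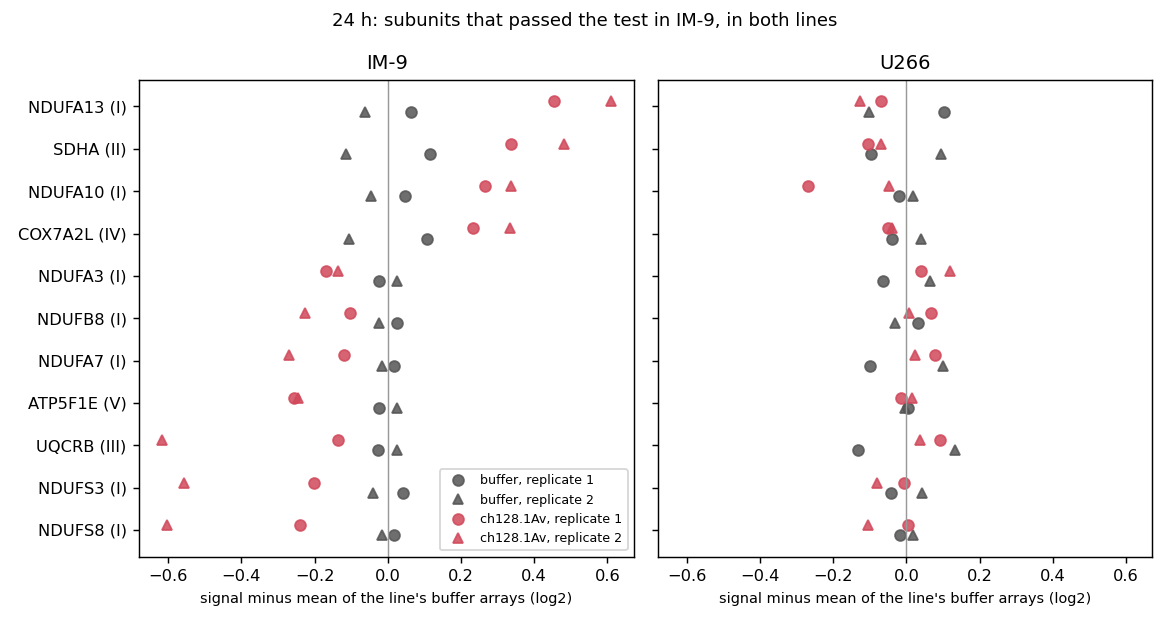
Signal of each 24 h array minus the mean of the buffer arrays of the same line (log2) for the 11 subunits that passed the test in IM-9, with their complex in brackets; left IM-9, right U266. Circles are replicate 1 and triangles replicate 2. In IM-9 treated and buffer arrays are apart for all 11 genes, and for NDUFS8, NDUFS3 and UQCRB the treated triangle lies furthest left. The genes were chosen by the test on these same IM-9 arrays, so their separation adds no support.

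In U266 at 24 h no member passed the test by limma, where 0.0173% of all genes did, and 2 of 78 members had an unadjusted p under 0.05, beside 817 of the 11538 genes. These were NDUFA6, an accessory subunit of complex I, at -0.19 (adjusted p = 0.556), and ATP5F1B, the catalytic beta subunit of the synthase, at -0.10 (adjusted p = 0.634). NDUFS8 was at 14.03 and 14.07 with buffer and at 14.06 and 13.95 with ch128.1Av, a difference of -0.05 (95% interval -0.19 to 0.09, adjusted p = 0.969). UQCRH, the acidic hinge subunit of complex III, was at 9.51 and 9.82 with buffer and at 10.22 and 10.31 with ch128.1Av, a difference of 0.60 (SE 0.355, adjusted p = 0.825), the largest in size in this line at 24 h. Complex medians lay between -0.07 (complex II) and 0.02 (complex IV).

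Whether the 24 h effect itself differed between the lines was tested as IM-9 effect minus U266 effect. Of 78 members 5 passed, 2 positive and 3 negative, where 4.87% of all genes passed, so the count is near the background. All 5 were in complex I, which holds 35 of the 78. NDUFA13 differed by 0.63 (SE 0.167, adjusted p = 0.0293) and NDUFA10 by 0.46 (SE 0.119, adjusted p = 0.0255). NDUFS8 differed by -0.37 (SE 0.0938, adjusted p = 0.0225), NDUFS3 by -0.34 (adjusted p = 0.0498) and NDUFA3 by -0.23 (adjusted p = 0.0481). The count fell to 0 when the second buffer or second treated array of IM-9, or the first buffer or first treated array of U266, was left out, and also with equal medians or with brightness as a covariate.

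Among the iron-sulfur subunits the change at 24 h was not shared. NDUFS7 was at 13.33 and 13.08 with buffer and at 13.27 and 13.55 with ch128.1Av in IM-9, where the groups overlapped, a difference of 0.21 (adjusted p = 0.164). Its level in U266 was 14.28 and 14.24 with buffer and 14.07 and 14.09 with ch128.1Av, a difference of -0.18 (adjusted p = 0.77). NDUFS1 differed by 0.05 in IM-9 and by 0.04 in U266 (adjusted p = 0.811 and 0.987). Over all 9 groups of a line, group means of NDUFS8 ran from 13.31 (ch128.1Av, 24 h) to 13.73 (buffer, 24 h) in IM-9 and from 13.99 to 14.17 in U266. Those of NDUFS7 ran from 13.13 to 13.41 in IM-9 and from 13.88 to 14.26 in U266, so that both genes stood lower in every IM-9 group than in any U266 group.

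**Figure D3:**
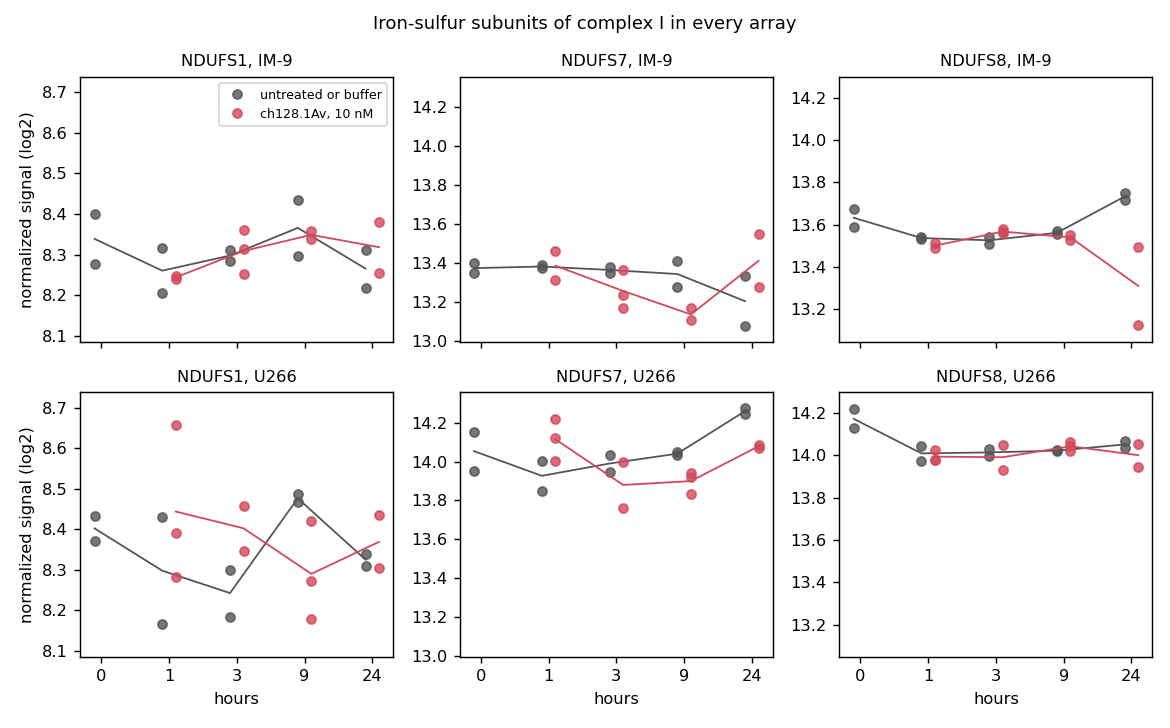
Normalized log2 signal of NDUFS1, NDUFS7 and NDUFS8 in every array by hour (evenly spaced, not to scale), untreated or buffer (grey) and 10 nM ch128.1Av (red), with lines through group means. The vertical axis of each gene is the same in both lines and does not start at 0. NDUFS8 in IM-9 parts at 24 h, from 13.72 and 13.75 with buffer to 13.13 and 13.49 with ch128.1Av.

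At the earlier hours in IM-9 no member passed the test by limma. At 1 h 0% of all genes passed and 0 members had an unadjusted p under 0.05, beside 236 of all genes, the nearest being NDUFB7 at 0.11 and ATP5F1B at -0.07. At 3 h 0.0173% of genes passed and 1 member had an unadjusted p under 0.05, beside 536 of all genes. It was ATP5MJ at -0.15 (adjusted p = 0.933), followed by ATP5MF, a membrane subunit of the synthase, at 0.15. At 9 h 0.0867% passed and 6 of 78 members had an unadjusted p under 0.05, beside 1005 of the 11538 genes. ATP5MF was then at 0.30 (SE 0.0905, adjusted p = 0.338) and NDUFA8 at -0.15 (adjusted p = 0.493). NDUFS8 differed by -0.04, 0.04 and -0.02 at 1, 3 and 9 h (adjusted p = 1, 0.958 and 0.975), all near 0. NDUFS7 was at -0.21 at 9 h (adjusted p = 0.557), the opposite side of its 24 h value.

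In U266 13 members passed at 1 h, 5 higher and 8 lower, where 8.93% of all genes did. The falls included ATP5F1E at -0.35 (adjusted p = 0.00224), UQCRQ at -0.28 (adjusted p = 0.0107), COX7C at -0.35 (adjusted p = 0.0171) and NDUFA3 at -0.21 (adjusted p = 0.00638), and the first 3 changed sign with equal medians. The rises included ATP5MC2, of the membrane ring of the synthase, at 0.38 (adjusted p = 0.0372), COX6A2 at 0.37 (adjusted p = 0.038) and NDUFB9 at 0.34 (adjusted p = 0.0307). All 3 treated arrays had a highest raw signal above 60000 and neither buffer array did, and brightness was 5.62, 3.95 and 4.43 with treatment against 8.89 and 9.21 with buffer. With the arrays above 60000 as a block, or with brightness as a covariate, 0 members passed, so treatment and array set cannot be told apart at this hour. At 3 h 0.00867% and at 9 h 0.0433% of all genes passed, with no member among them, while 8 and 2 of the 78 members had an unadjusted p under 0.05, beside 551 and 414 of all genes. The highest raw signal at 3 h was 43037.6 and 66932 with treatment and 44131.5 and 45161 with buffer. At 9 h it was 66442.7, 46668.3 and 47570.9 with treatment and 66746 and 67436.7 with buffer. Array set and treatment were thus unevenly mixed at these hours too, which limits the absence of calls. The nearest members were COX8A (-0.20, adjusted p = 0.437) and UQCRQ (-0.20, adjusted p = 1) at 3 h, and NDUFB3 (0.21, adjusted p = 0.999) and NDUFS1 (-0.19, adjusted p = 0.999) at 9 h.

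**Figure D4:**
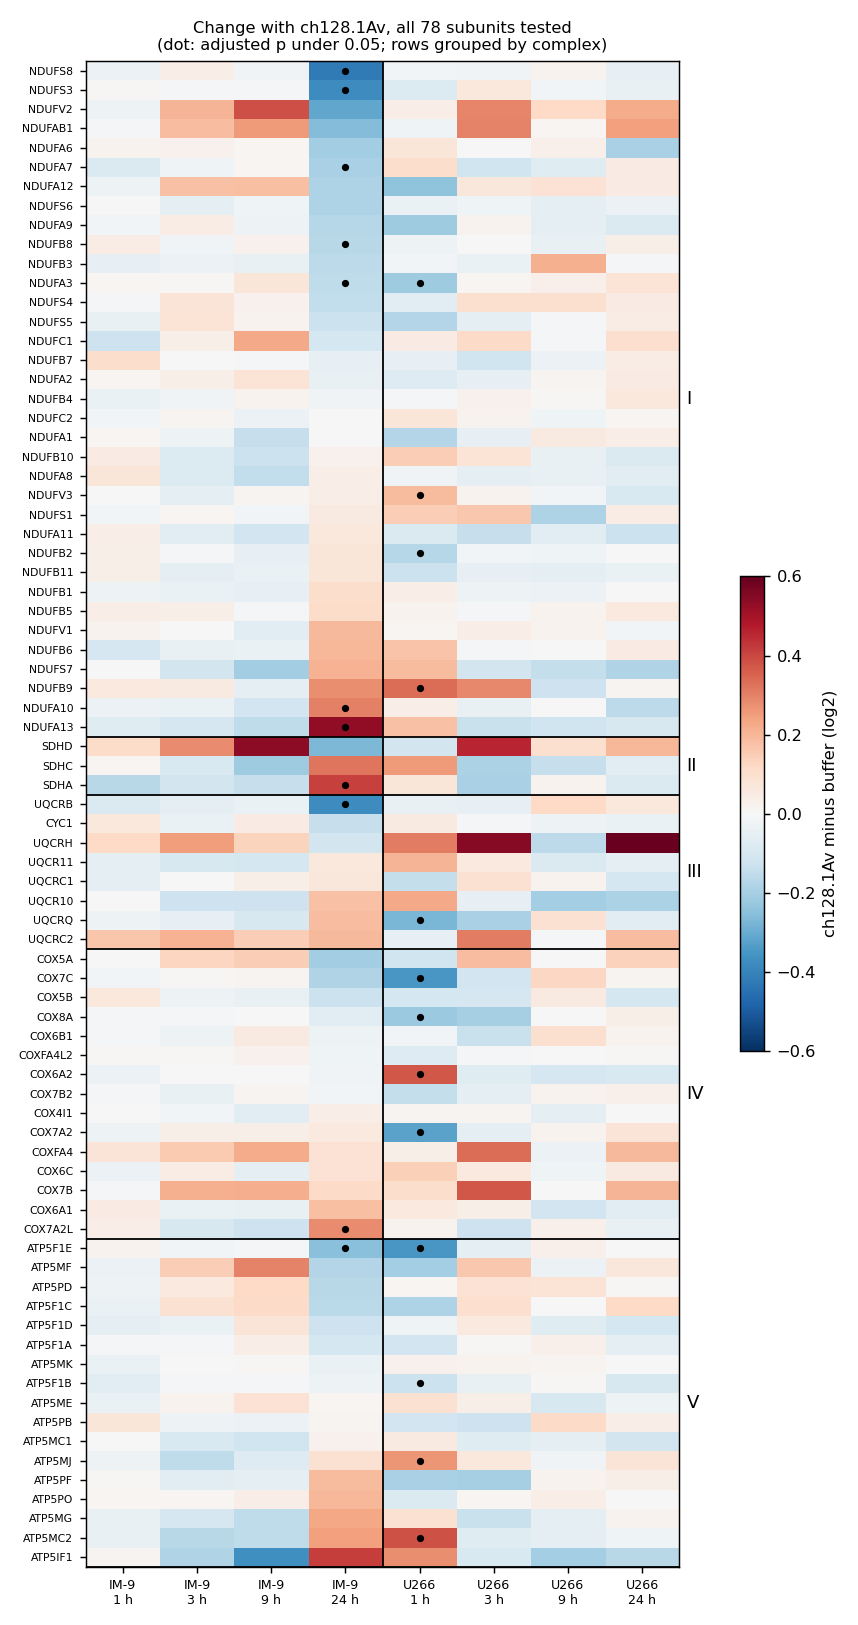
Change with ch128.1Av against buffer (log2, colour) for each of 78 subunits (rows, grouped by complex and ordered by the IM-9 24 h change) at 4 hours in each line (columns). Black dots mark adjusted p under 0.05, which occur in the IM-9 24 h column (11 genes) and the U266 1 h column (13 genes).

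Members also moved with time in buffer, in comparisons that share the 24 h buffer arrays with those of ch128.1Av at 24 h. From 0 h to 24 h in IM-9, 10 rose and 4 fell of 78, where 16.2% of all genes passed. In U266, 7 rose and 5 fell, where 12.6% passed. NDUFB9, an accessory subunit of the membrane arm, moved in opposite directions: in IM-9 it went from 12.28 and 12.21 to 11.45 and 11.63, a fall of 0.71 (SE 0.104, adjusted p = 4.98e-05), and in U266 from 12.32 and 12.02 to 12.86 and 12.83, a rise of 0.67 (adjusted p = 0.000357). Neither pair of groups overlapped, and the difference between the lines was not tested. Array brightness also moved in opposite directions. In IM-9 it was 4.52 and 6.17 at 0 h and 9.24 and 9.29 with buffer at 24 h. In U266 it was 6.55 and 11.71 at 0 h and 4.23 and 5.99 with buffer at 24 h. Time in buffer and brightness thus changed together, and fewer members passed in U266 with brightness as a covariate. In IM-9 the synthase subunit ATP5MF, without overlap, rose by 0.47 (adjusted p = 0.000829), COX8A rose by 0.22 (adjusted p = 0.0013) and the stalk subunit ATP5PO fell by 0.32 (adjusted p = 0.00191). NDUFA13 fell by 0.36 with buffer (adjusted p = 0.0377), so its treated level at 24 h, 12.73, lay nearer to its untreated level of 12.56 than the buffer level of 12.20 did. In U266 NDUFB10 rose by 0.41 (adjusted p = 0.00342), ATP5IF1 by 0.52 (adjusted p = 0.0443) and UQCR10 by 0.47 (adjusted p = 0.032), while COX5A fell by 0.43 (adjusted p = 0.0291), the central synthase subunit ATP5F1C by 0.29 (adjusted p = 0.0346) and COX7C by 0.32 (adjusted p = 0.0296). With equal medians 0 members passed in either line, and COX7C changed sign.

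**Figure D5:**
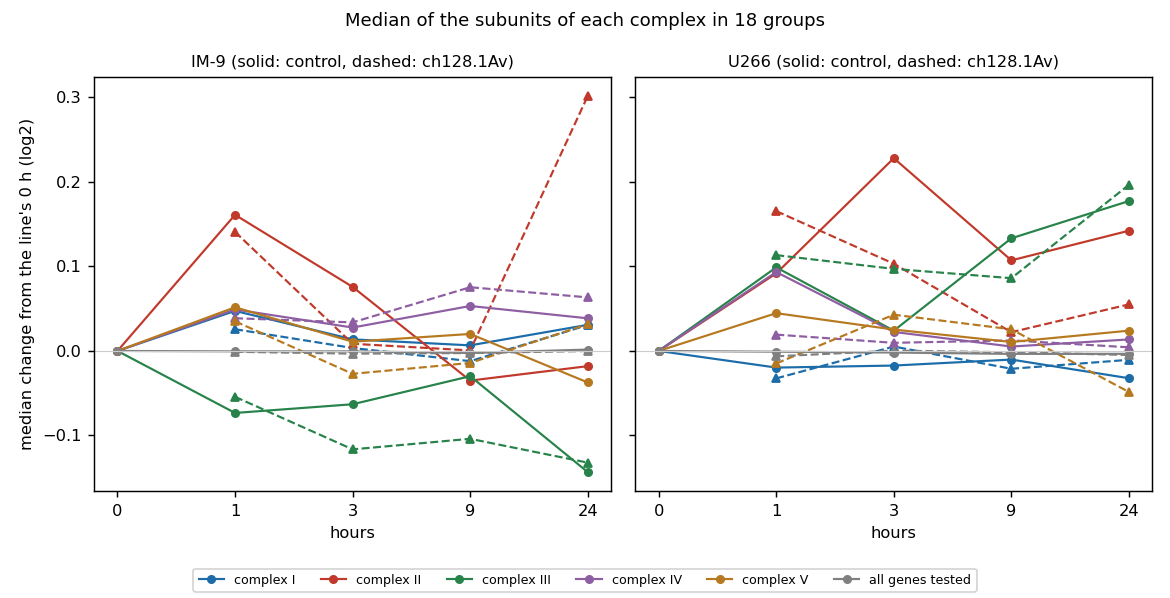
Median change of the subunits of each complex from the 0 h mean of the same line (log2), by hour (evenly spaced, not to scale), with untreated or buffer groups solid and ch128.1Av dashed; grey is the median of all 11538 genes tested. Medians of complexes I, IV and V stay within 0.1 of 0, and the 3 genes of complex II move most, to 0.30 in treated IM-9 at 24 h. The spread between replicate arrays is not shown.

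Over the 9 groups of a line, members ranged about as widely as all genes did. The median range of group means was 0.258 for members of IM-9, where that of all genes was 0.258 too, and 0.245 for members of U266, where that of all genes was 0.229. Complex II ranged most in both lines, 0.548 and 0.398, followed by complex III, at 0.325 and 0.314. Replicates also varied in these complexes. The mean SD between replicates in IM-9 and U266 was 0.25 and 0.21 for SDHD, 0.10 and 0.19 for SDHC, and 0.12 and 0.12 for SDHA. In complex III it ran in IM-9 from 0.045 for UQCRC1 to 0.28 for UQCRH. The ranges were not corrected for this spread. The median of complex III from 0 h to 24 h in buffer was -0.14 in IM-9 and 0.18 in U266, and with equal medians these values turned to 0.09 and -0.01.

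Other genes of the pathway were counted from lists. Of 47 assembly factors tested in IM-9 at 24 h, 0 rose and 6 fell, with a median of 0.0045, beside the 6.15% and 7.23% of all genes. COX20, which escorts a mitochondrially encoded subunit of complex IV, fell by 0.61 (SE 0.128, adjusted p = 0.00242), and NDUFAF2, a late assembly factor of complex I, by 0.42 (adjusted p = 0.0126). COA5 of complex IV assembly fell by 0.37 (adjusted p = 0.00828) and TMEM70 of complex V assembly by 0.54 (adjusted p = 0.0373). Of 14 genes for cytochrome c and ubiquinone synthesis, COQ8A rose by 0.36 (adjusted p = 0.00401) and COQ10A fell by 0.26 (adjusted p = 0.0125). Of 15 biogenesis regulators 0 rose and 2 fell, with a median of -0.17, namely SLIRP, which stabilizes mitochondrial transcripts, by 0.47 (SE 0.0507, adjusted p = 1.49e-06) and MTERF3, a regulator of mitochondrial transcription, by 0.59 (adjusted p = 0.00419). In U266 at 24 h none of these genes passed, and the difference between the lines passed for SLIRP (-0.51, adjusted p = 0.000155), NDUFAF2, COA5 and COX20. COQ6 also passed both tests, but it failed detection on every 24 h array, so no size is given for it. Genes of these lists were not followed through the other ways of processing or the leaving out of arrays. The IM-9 arrays at 24 h differed in brightness, as given above.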

How the data were processed

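Total RNA of both lines was hybridised to Illumina BeadChips. The deposited scanner table held a mean intensity for each of 20589 probes, linear, without background subtraction or normalization between arrays, per the file headers. BeadStudio was named, with no version, per the submitters' processing notes. A detection score, a fraction from 0 to 1, was deposited beside each intensity, and 1 minus it was used as detection p. Also deposited was a table of log2 values, quantile-normalized by the authors (as its values show, since no label states it), which served as an alternative. A further 78 per-sample columns were not used. The genome build was not given in the sources used here.

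Intensities were background-corrected, offset by 16, quantile-normalized and log2-transformed by the neqc function (limma 3.58.1, R 4.3.3). Detection at p under 0.01 on 2 or more arrays was required of a probe, which kept 12080, and the brightest probe of a gene was used, which left 11538. The members had 90 probes, and 7 had more than 1 kept probe. A single model with 18 group means, fitted with lmFit and eBayes of limma (21 residual degrees of freedom), gave two-sided p-values for 12 contrasts, with a Benjamini-Hochberg adjustment across all tested genes in each. Line means are averages of 5 untreated or buffer groups. Replicate arrays correlated at 0.9937 or more across probes. The fit was also run on data simulated around its own group means, with independent noise for each gene and array. That run cannot show how differences between whole arrays affect the calls. The number of arrays limits the precision.

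The members, lists and rules were chosen with earlier results of these data known. Named by rule were the iron-sulfur subunits, up to 5 called members of each complex for IM-9 at 24 h, up to 2 of each complex for other contrasts (largest change), the 2 smallest p where none was called, and up to 4 called genes of each list at 24 h. Others (such as CYC1, UQCRH, UQCRB, UQCR11, UQCRC1, UQCRQ, SDHC and COX7B between the lines, and NDUFB8 and NDUFA3 at 24 h) were chosen after their values were seen. Alternatives were equal medians, no background correction, the authors' log2 table, no detection filter, the mean of a gene's probes, each line fitted alone, brightness as a covariate, the arrays above 60000 as a block, the replicate number as a block, 0 h arrays alone and leaving out each array.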

Additional observations from a re-analysis of the deposited data

Results flagged for a closer look

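The effect of ch128.1Av at 24 h differed between the lines, by limma's test of the difference itself, for 5 of 78 members. Of all genes 4.87% passed, so the count of members is near the background. All 5 were subunits of complex I, which holds 35 of the 78 members. Each is given as IM-9 effect minus U266 effect. NDUFA13 differed by 0.63 (adjusted p = 0.0293): it rose by 0.53 in IM-9 and was at -0.10 in U266. NDUFA10 differed by 0.46 (adjusted p = 0.0255), with 0.30 in IM-9 and -0.16 in U266. The U266 changes of these accessory subunits did not pass limma's test (adjusted p = 0.965 for NDUFA13 and 0.772 for NDUFA10), so their side of 0 in U266 is not established. With equal medians the IM-9 change of NDUFA10 was -0.0272. None of the 5 differences passed with equal medians or with brightness as a covariate. NDUFS8 differed by -0.37 (adjusted p = 0.0225), NDUFS3 by -0.34 (adjusted p = 0.0498) and NDUFA3 by -0.23 (adjusted p = 0.0481). For the iron-sulfur subunit NDUFS8 and its neighbour NDUFS3 the IM-9 changes were -0.42 and -0.38, and the U266 changes were -0.05 and -0.04.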

How the results depend on the processing

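Counts of members called are given against 11 for ch128.1Av in IM-9 at 24 h, 5 for the difference between lines at 24 h, 13 for U266 at 1 h, 14 and 12 for buffer at 24 h against 0 h in IM-9 and U266, and 64 between the lines. With equal medians these became 4, 0, 1, 0 and 0 (2 of the 4 and 0 of the 1 shared with the main calls), and 60 between the lines, while the counts over all genes were 748, 12, 60, 1101 and 6, and 8699. With brightness as a covariate they were 3 for IM-9 at 24 h, 0 for the difference, 0 for U266 at 1 h and 2 for U266 buffer, where all genes gave 586, 169, 8 and 265 in place of 1544, 562, 1030 and 1459. The difference gave 1 without background correction, 1 with the authors' log2 table, 3 without the detection filter and 3 with the replicate block. Each line fitted alone gave 2 for U266 at 1 h and 4 for U266 buffer, and the array set as a block gave 0 for U266 at 1 h. The cause was not tested. Signs reversed with equal medians for ATP5F1E (0.21 in IM-9 at 24 h, 0.39 in U266 at 1 h), COX7C (0.16 in U266 at 1 h, 0.0668 in U266 buffer), NDUFA10 (-0.0272 in IM-9 at 24 h) and UQCRQ (0.0081 in U266 at 1 h). Leaving out 1 array gave 1 to 16 for IM-9 at 24 h, 0 to 9 for the difference, 3 to 10 for U266 at 1 h, 9 to 14 for IM-9 buffer, 2 to 21 for U266 buffer and 63 to 67 between the lines. The lowest counts came without the second treated array (1) and the second buffer array (3) of IM-9 at 24 h, the first buffer array of U266 at 1 h (3), the first 24 h buffer array of IM-9 (9), and the first 0 h or first 24 h buffer array of U266 (2). The highest came without the first treated array of IM-9 at 24 h (16, and 9 for the difference) and the second 0 h array of U266 (21). Replicates share only a number: deviations of same-numbered arrays correlated between -0.698 and 0.293 across genes, and a replicate block moved the other counts to 9 for IM-9 at 24 h, 11 for U266 at 1 h, 14 and 10 for buffer, and 62 between the lines. Probes below background, such as COX7B2 and COX6A2 in IM-9, give only bounds.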

Other observations

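Genes that serve the complexes also differed between the lines over the untreated and buffer arrays, in the comparison in which 82.9% of all genes passed. The genes named here were chosen after their values were seen. Of 47 assembly factors 28 were higher and 10 lower in IM-9, with a median of 0.15. SCO1 and SCO2, which bring copper to complex IV, were higher in IM-9, SCO1 by 1.94 (SE 0.0582) and SCO2 2.83-fold (SE 0.0349 on the log2 scale), whereas SURF1 and COX20, which also serve complex IV, were lower, with differences of -1.73 (SE 0.0213) and -1.36 (SE 0.0574). The complex I assembly factors NDUFAF4 and FOXRED1 were higher by 1.70 and 1.34. In each of these 6 genes the 10 arrays of the lines did not overlap, as was the case in 50.9% of all genes tested.

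Of 14 genes for cytochrome c and ubiquinone synthesis 7 were higher and 4 lower in IM-9. COQ2, COQ3 and PDSS1, all enzymes of ubiquinone synthesis, were higher by 2.19 (SE 0.0359), 1.82 (SE 0.0499) and 1.61 (SE 0.0774), and COQ10A, a ubiquinone-binding protein, was lower, with a difference of -2.44 (SE 0.0307). Of 15 biogenesis regulators 10 were higher and 4 lower. LRPPRC, the partner of SLIRP in keeping mitochondrial transcripts stable, was higher by 1.04, SLIRP by 0.46, the mitochondrial DNA packaging protein TFAM by 0.63, and the coactivators PPARGC1B and PPRC1 by 0.92 and 0.88. PPARGC1A, a coactivator of the same family, was detected on 0 of 10 IM-9 arrays and 10 of 10 U266 arrays, where it was at least 1.21-fold higher (mean 8.05 against 7.69). It passed the detection filter only through U266, so no p is given.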
